A study of Mus musculus with 9 samples.

Results

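The genes followed here are 10 genes of blood vessel endothelium, Pecam1, Cdh5, Kdr, Tek, Tie1, Egfl7, Vwf, Sox17, Esam and Cldn5. They were chosen by symbol, as the rows of the count table whose Ensembl identifier maps to these names, out of 56691 genes in all. All 10 were found and all 10 passed the filter on low counts, which 17251 genes passed. Testes of mice aged 7 days after birth gave 3 groups of 3 libraries of messenger RNA enriched with oligo(dT) beads. The groups were a knockout of both Gm1142 and Gm4779 (Gm1142-/- Gm4779-/-, titled DKO), a knockout of Gm1142 alone (Gm1142-/-, titled Gm1142KO) and wild type (WT). The labels give no strain, founder line or pooling and do not say whether libraries of a group came from different animals, so every p-value speaks of variation among these libraries, part of which may be technical. The comparisons address how testis transcripts differ from WT when Gm1142 is targeted alone or together with Gm4779.

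Endothelial cells line the blood vessels that run between the seminiferous cords of the testis. They are held together by junction proteins such as the cadherin encoded by Cdh5, the adhesion receptor encoded by Pecam1, Esam, and the tight junction claudin encoded by Cldn5. Their growth is driven by vascular endothelial growth factor (VEGF) acting on the receptor tyrosine kinase encoded by Kdr, and their quiescence and remodelling by angiopoietins acting on the receptor encoded by Tek, with its relative Tie1 as a co-receptor. Egfl7 encodes a protein secreted by endothelium, Vwf encodes the clotting factor that endothelium stores and secretes, and Sox17 encodes a transcription factor of arterial endothelium. ETS-family factors, whose binding core is GGAA, and SOXF factors, which bind ACAAT-like cores, are known regulators of endothelial genes.

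Counted over the genes, 0 of 10 passed edgeR's quasi-likelihood test in DKO against WT at an adjusted p under 0.05, where 0.0927% of all tested genes passed, 0.0464% higher and 0.0464% lower. In Gm1142KO against WT 0 of 10 passed as well, although 18.5% of all tested genes did. DESeq2 and limma-voom, an alternative linear-model test, also called 0 in both comparisons. Over all genes they called 63 and 15 in DKO against WT and 3286 and 2994 in Gm1142KO against WT. Between the knockout groups 3 of 10 passed, where 19.1% of all tested genes did. Kdr was higher in DKO than in Gm1142KO, against 9.07% of all tested genes, and Egfl7 and Vwf were lower, against 10.1%. DESeq2 called 3 and limma-voom 4 of the 10 there, against 3380 and 3406 of all 17251 tested genes. With 10 genes, 3 called is near that background. Each group enters 2 of the comparisons, so the counts are not independent.

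At an unadjusted p under 0.05, 3 of 10 genes passed in DKO against WT (Kdr, Egfl7 and Vwf), against 8.95% of all tested genes. In Gm1142KO against WT it was 1 of 10 (Sox17), against 30.8%, and between the knockout groups 5 of 10 (Kdr, Egfl7, Vwf, Pecam1 and Esam), against 32.2%. The libraries of DKO and WT did not overlap for 2 of 10 genes, against 15.9% of all tested genes, with Kdr higher (8.28% of all) and Vwf lower (7.57% of all). Those of Gm1142KO and WT did not overlap for 1 of 10, Sox17, which was lower (17.2% of all lower and 18.7% higher, 35.9% in all), and those of the knockout groups for 3 of 10 (33.4% of all, 16.3% higher and 17.1% lower).

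Kdr, Egfl7 and Vwf are the genes called between the knockout groups, in a number near the background. Their upstream sequences are shown next where RefSeq's table holds them. That of Tie1, the gene that followed the other 9 most closely across libraries, is shown as well. The 250 bases before the RefSeq transcription start are printed, from build GRCm38.p6, in the direction of the gene. Capitals mark GGAA or ACAAT, read on either strand; where matches touch they form 1 run.
Kdr (chr5:75978456-75978705, minus strand): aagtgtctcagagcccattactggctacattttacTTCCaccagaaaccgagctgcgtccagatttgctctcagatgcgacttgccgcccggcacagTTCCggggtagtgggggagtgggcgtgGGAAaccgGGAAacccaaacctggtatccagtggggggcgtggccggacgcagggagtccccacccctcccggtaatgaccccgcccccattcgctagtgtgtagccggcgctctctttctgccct
Egfl7, outermost start (chr2:26580833-26581082, plus strand): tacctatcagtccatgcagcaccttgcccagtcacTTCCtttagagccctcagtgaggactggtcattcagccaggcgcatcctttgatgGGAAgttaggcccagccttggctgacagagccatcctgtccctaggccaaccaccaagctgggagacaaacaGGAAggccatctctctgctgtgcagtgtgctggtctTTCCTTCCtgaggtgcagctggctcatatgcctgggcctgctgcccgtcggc
Egfl7, middle start (chr2:26583615-26583864, plus strand): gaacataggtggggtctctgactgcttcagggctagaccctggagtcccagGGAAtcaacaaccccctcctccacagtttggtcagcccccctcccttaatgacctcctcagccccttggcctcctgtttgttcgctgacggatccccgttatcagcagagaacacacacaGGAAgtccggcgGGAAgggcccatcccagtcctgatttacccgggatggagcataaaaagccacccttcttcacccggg
Tie1 (chr4:118489850-118490099, minus strand): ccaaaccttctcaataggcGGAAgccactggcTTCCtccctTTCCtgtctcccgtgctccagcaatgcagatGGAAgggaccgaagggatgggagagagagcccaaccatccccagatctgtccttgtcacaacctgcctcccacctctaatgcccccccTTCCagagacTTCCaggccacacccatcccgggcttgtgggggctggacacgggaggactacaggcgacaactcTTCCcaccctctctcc

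RefSeq windows were found for 5 of the 10 genes by symbol, Kdr, Egfl7, Tek, Tie1 and Cldn5. GGAA had 4 matches in the Kdr window, 5 in the outermost Egfl7 window and 3 in the middle one, and 93.4% of all 32851 windows of this length held at least 1 match. The third Egfl7 window held 1 match, Tek 2 and Cldn5 0. Tie1 had 7 matches. At least as many matches were held by 33.4% of all windows for Kdr, 18% for the outermost, 54.7% for the middle and 93.4% for the third Egfl7 window, 76.8% for Tek and 3.82% for Tie1. Of the windows of these 5 genes, ACAAT was found in that of Tek alone, with 2 matches, and in 27.7% of all windows. The labels outermost and middle rank the Egfl7 windows among its 3 RefSeq starts only. In the GRCm38 annotation the gene begins further upstream, at position 26580014 of chromosome 2, which lies before the outermost window. The count table sums Egfl7 over its exons, so it does not say which start was used.

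Egfl7 also hosts the endothelial microRNA miR-126, printed here because its host gene is among the 3 called between the knockout groups. The seed, bases 2 to 8, is in capitals, and the position is in build GRCm38.p6.
mmu-miR-126a-3p (chr2:26591402-26591423, plus strand): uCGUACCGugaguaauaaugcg

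The rows of Mir126a and Mir126b had 0 counts in all 9 libraries. These libraries were enriched with oligo(dT) beads, so they carry no measurement of the mature microRNA.

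Total gene counts were 4370124 to 8359594 in DKO, 4597447 to 5243756 in Gm1142KO and 4514237 to 5091624 in WT. Together the 10 genes took 797 to 1313 counts in DKO, 602 to 1370 in Gm1142KO and 905 to 1015 in WT (the fewest being those of Cldn5, Sox17 and Vwf). The targeted gene Gm1142, listed as 8030474K03Rik, had 0 counts in every DKO library, 65, 46 and 50 counts in the libraries labelled Gm1142KO, and 56, 50 and 41 in WT. Gm4779 had 0 counts in every DKO library, 88, 61 and 59 counts in Gm1142KO, and 42, 48 and 53 in WT. Gm1142KO is therefore known by its label alone. The share of mitochondrially encoded counts was higher on average in the Gm1142KO libraries, 35.6% ± 3.22, against 29.9% ± 2.89 in DKO and 30.7% ± 1.73 in WT (SD, n = 3 each), but Gm1142KO replicate 1, at 32.5%, lay within the range of the other groups. Gm1142KO replicate 2 had the highest share, 38.9%.

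The 10 genes lie on chromosomes 1 (Sox17), 2 (Egfl7), 4 (Tek and Tie1), 5 (Kdr), 6 (Vwf), 8 (Cdh5), 9 (Esam), 11 (Pecam1) and 16 (Cldn5), and the counts sum reads over the exons of each. Levels below are in CPM, that is counts scaled to a common library size with TMM factors. To compare genes with one another, CPM was divided by the exonic length of the gene in kilobases, and this is the only use of length. In WT testes, Egfl7 was the most abundant of the 10, at 15.9 ± 2.87 CPM per kilobase (SD, n = 3). Cdh5 followed at 8.28 ± 0.733, Esam at 6.16 ± 0.848 and Pecam1 at 4.90 ± 0.843 CPM per kilobase. The means ± SD of Esam and Pecam1 overlap, and those of Egfl7 and Cdh5 do not. The receptor genes were lower, with Tie1 at 2.56 ± 0.318, Kdr at 2.06 ± 0.601 and Tek at 1.59 ± 0.822 CPM per kilobase. Cldn5 lay at 1.79 ± 2.16 and Sox17 at 1.36 ± 0.336 CPM per kilobase, and the values of Kdr, Cldn5, Tek and Sox17 were not apart beyond their spread. Vwf had the lowest mean, at 0.530 ± 0.159 CPM per kilobase, which lies within the spread of Cldn5. By group means, DKO kept Egfl7 first (11.9 ± 2.22 CPM per kilobase) and Vwf last (0.214 ± 0.0316). In DKO the mean ± SD of Egfl7 overlapped that of Cdh5, 8.72 ± 1.94 CPM per kilobase. Gm1142KO kept the same first and last genes, with Egfl7 at 19.3 ± 1.0 and Vwf at 0.507 ± 0.205 CPM per kilobase. In Gm1142KO the level of Sox17, 0.628 ± 0.189 CPM per kilobase, was not apart from that of Vwf.

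**Figure D1:**
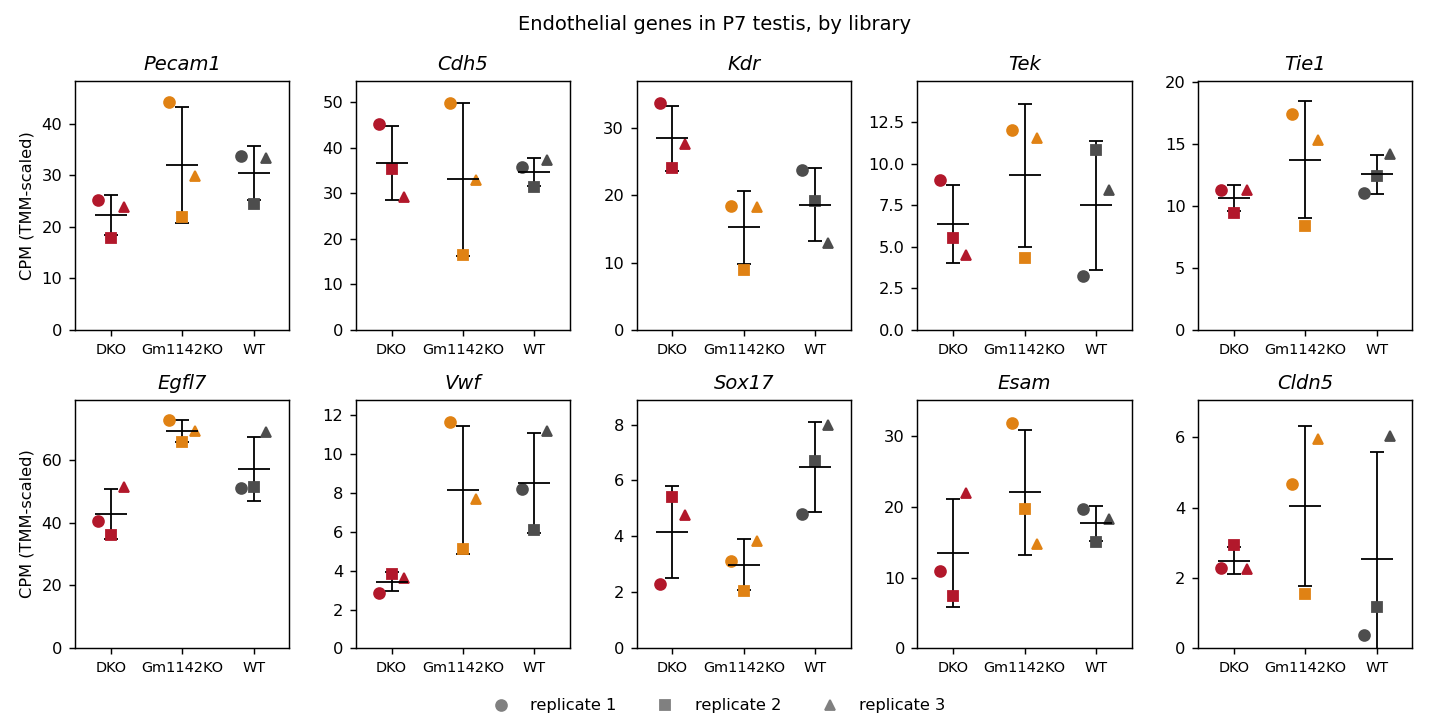
CPM of each of the 10 genes (vertical axis, linear, from 0) in every library of DKO, Gm1142KO and WT, with replicates 1 to 3 as circle, square and triangle and bars for mean ± SD (the lower SD bar of Cldn5 in WT runs below 0 and is not drawn there). Vwf is low in all 3 DKO libraries, and the square of Gm1142KO is the lowest of its group in 9 of 10 panels.

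Kdr (ENSMUSG00000062960.11), the main VEGF receptor of endothelium, had 33.7, 24.1 and 27.6 CPM in DKO, 18.5, 8.95 and 18.3 CPM in Gm1142KO, and 23.7, 19.1 and 12.9 CPM in WT. All 3 DKO libraries lay above all libraries of the other groups, and Gm1142KO and WT overlapped. DKO exceeded Gm1142KO with a log2 fold change of 0.88 (SE 0.26, 95% interval 0.33 to 1.43), which passed edgeR's quasi-likelihood test at an adjusted p of 0.0225. Against WT the log2 fold change of DKO was 0.61 (SE 0.26, 95% interval 0.07 to 1.14), which did not pass (edgeR adjusted p = 0.496). Gm1142KO against WT gave -0.28 (SE 0.27, edgeR adjusted p = 0.528). The call between the knockout groups rested on 2 libraries. Without DKO replicate 1 the log2 fold change was 0.73 (edgeR adjusted p = 0.102), and without Gm1142KO replicate 2, where Kdr was lowest, it was 0.62 (edgeR adjusted p = 0.105).

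The angiopoietin receptors did not pass in any comparison. Tek had 8.99, 5.53 and 4.53 CPM in DKO, 12.0, 4.35 and 11.5 CPM in Gm1142KO, and 3.25, 10.8 and 8.4 CPM in WT. All 3 groups overlapped, and the counts, 20 to 49 in DKO, 17 to 62 in Gm1142KO and 17 to 55 in WT, varied as much within a group as between groups. Its log2 fold change was -0.24 for DKO and 0.33 for Gm1142KO against WT, with 95% intervals of -1.12 to 0.65 and -0.55 to 1.20. Tie1 had 11.3, 9.48 and 11.3 CPM in DKO, 17.5, 8.44 and 15.3 CPM in Gm1142KO, and 11.1, 12.4 and 14.2 CPM in WT. The spread within Gm1142KO covered all other libraries. Between DKO and Gm1142KO the Tie1 log2 fold change was -0.38 (SE 0.27, 95% interval -0.95 to 0.19, edgeR adjusted p = 0.358).

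Egfl7 (ENSMUSG00000026921.21) had the smallest adjusted p of the 10 genes between the knockout groups. It had 40.4, 36.0 and 51.4 CPM in DKO, 72.6, 65.5 and 69.2 CPM in Gm1142KO, and 50.9, 51.2 and 68.9 CPM in WT. DKO lay wholly below Gm1142KO, while WT overlapped both. DKO was lower than Gm1142KO, with a log2 fold change of -0.71 (SE 0.16, 95% interval -1.05 to -0.37, edgeR adjusted p = 0.00436). This call was kept in all 17 alternatives run, with edgeR, DESeq2 or limma adjusted p-values up to 0.0373. Against WT, Egfl7 was at -0.43 in DKO (SE 0.16, edgeR adjusted p = 0.448) and at 0.28 in Gm1142KO (SE 0.16, edgeR adjusted p = 0.254), and neither passed. In the GRCm38 annotation 64 exonic bases of Egfl7 are shared with Agpat2 on the other strand, and the strand setting of the counting is not given in the sources used here. Agpat2 had 30, 25 and 15 counts in DKO, 70, 44 and 46 in Gm1142KO, and 15, 27 and 21 in WT, against 211 to 319 counts of Egfl7 in DKO, 256 to 374 in Gm1142KO and 260 to 320 in WT. Agpat2 was thus highest in the group in which Egfl7 was highest, and the part of shared reads in the Egfl7 result was not tested. Gm20532, which shares 264 exonic bases with Egfl7 on the same strand, had 0 counts in all 9 libraries.

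Vwf (ENSMUSG00000001930.18), which encodes von Willebrand factor, was low in every DKO library. It had 2.87, 3.84 and 3.62 CPM in DKO (15, 34 and 16 counts), 11.7, 5.11 and 7.67 CPM in Gm1142KO (60, 20 and 36 counts), and 8.23, 6.11 and 11.2 CPM in WT (43, 31 and 52 counts). All 3 DKO libraries lay below the other 6. DKO was lower than Gm1142KO, with a log2 fold change of -1.24 (SE 0.38, 95% interval -2.02 to -0.46, edgeR adjusted p = 0.0246). Against WT the log2 fold change of DKO was -1.29 (SE 0.37, 95% interval -2.07 to -0.51), which did not pass over all genes (edgeR adjusted p = 0.265, unadjusted p = 0.00251). Gm1142KO against WT gave -0.05 (SE 0.35, 95% interval -0.78 to 0.69). The call between the knockout groups was lost without DKO replicate 1 (edgeR adjusted p = 0.0719), DKO replicate 2 (0.0602) or Gm1142KO replicate 1 (0.147), with log2 fold changes of -1.15, -1.33 and -0.89.

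Sox17 had its highest values in WT. It had 2.30, 5.41 and 4.76 CPM in DKO, 3.11, 2.05 and 3.83 CPM in Gm1142KO, and 4.79, 6.70 and 7.97 CPM in WT. Gm1142KO lay wholly below WT, and DKO overlapped both. The log2 fold change of Gm1142KO against WT was -1.09 (SE 0.44, 95% interval -2.0 to -0.19), which did not pass (edgeR adjusted p = 0.0892), and over the alternatives its adjusted p ran from 0.0688 to 0.245. Its counts were low, 12 to 48 in DKO, 8 to 18 in Gm1142KO and 25 to 37 in WT. Gm37587, which shares 804 exonic bases with Sox17 on the other strand, had at most 3 counts in any library.

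The junction genes did not pass in any comparison. Pecam1 had 25.3, 17.9 and 23.8 CPM in DKO, 44.3, 22.0 and 29.8 CPM in Gm1142KO, and 33.7, 24.4 and 33.4 CPM in WT. DKO held the lowest value and overlapped both other groups. Its log2 fold change was -0.54 between DKO and Gm1142KO (SE 0.23, edgeR adjusted p = 0.108), and without Gm1142KO replicate 2 it was -0.75 and passed (edgeR adjusted p = 0.0258). Cdh5 had 45.3, 35.4 and 29.2 CPM in DKO, 49.9, 16.4 and 33.0 CPM in Gm1142KO, and 35.8, 31.3 and 37.3 CPM in WT. Group means of Cdh5 were close, 36.7 ± 8.14, 33.1 ± 16.8 and 34.8 ± 3.08 CPM in DKO, Gm1142KO and WT (SD, n = 3 each), and the 95% interval of the log2 fold change of DKO against WT ran from -0.46 to 0.62.

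Esam, which encodes an immunoglobulin-family adhesion protein of endothelium and platelets, had 10.9, 7.45 and 22.0 CPM in DKO, 31.9, 19.7 and 14.7 CPM in Gm1142KO, and 19.7, 15.0 and 18.3 CPM in WT. All 3 groups overlapped, and DKO replicate 3 lay above every WT library while the other DKO libraries lay below them all. The log2 fold change between DKO and Gm1142KO was -0.77 (SE 0.33, edgeR adjusted p = 0.108). It passed without DKO replicate 3 (-1.30, edgeR adjusted p = 0.0062), without the filter on low counts (edgeR adjusted p = 0.0288) and with limma-voom (-0.95, adjusted p = 0.0403). Cldn5 had 2.30, 2.93 and 2.26 CPM in DKO, 4.66, 1.53 and 5.97 CPM in Gm1142KO, and 0.383, 1.18 and 6.03 CPM in WT. The WT libraries spanned all the others, from 2 counts in replicate 1 to 28 in replicate 3. Without WT replicate 3, Gm1142KO exceeded WT in Cldn5 with a log2 fold change of 2.36 (edgeR adjusted p = 0.0428), against 0.72 (SE 0.68, edgeR adjusted p = 0.511) with all libraries.

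**Figure D2:**
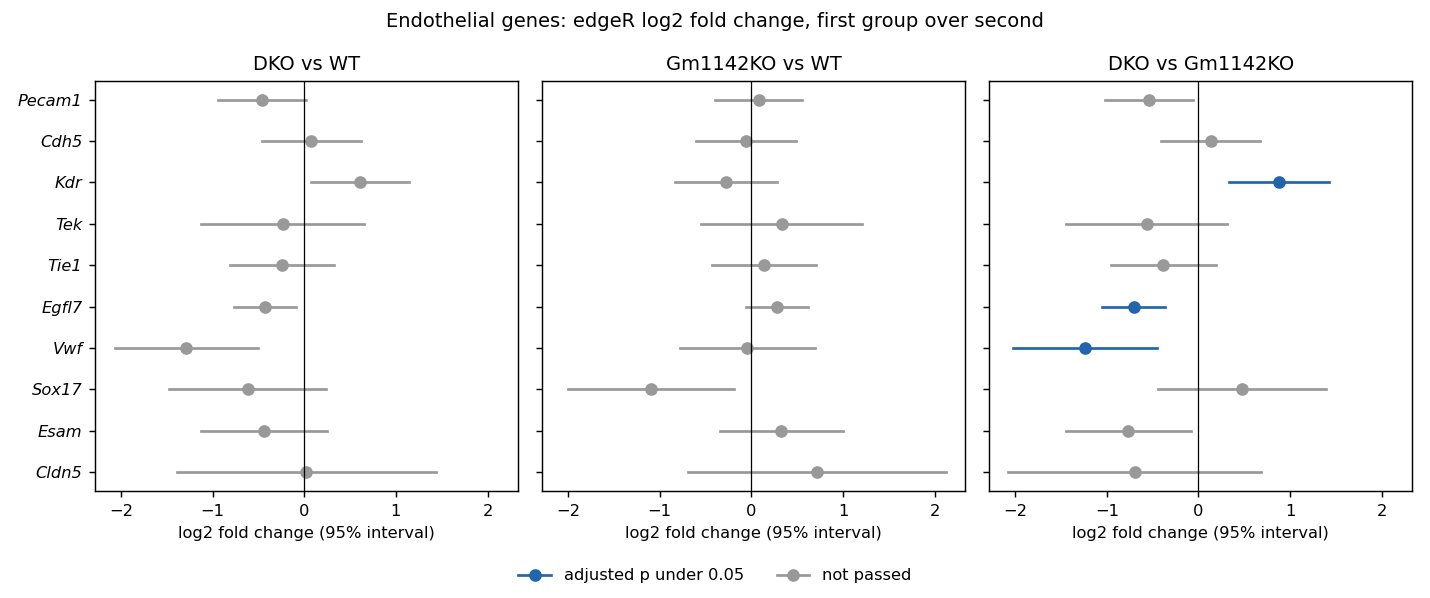
edgeR log2 fold changes (horizontal axis, first group over second) of the 10 genes with 95% intervals in the 3 comparisons, in blue where the adjusted p over all genes was under 0.05 and in grey where it was not. Blue appears only between DKO and Gm1142KO, for Kdr at 0.88, Egfl7 at -0.71 and Vwf at -1.24.

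The median log2 fold change of the 10 genes was -0.33 in DKO against WT, 0.11 in Gm1142KO against WT and -0.55 between DKO and Gm1142KO. The medians over all tested genes were 0.02, -0.01 and 0.03. In DKO against WT 7 of the 10 had log2 fold changes below 0, against 8236 of all 17251 tested genes. The other 3 were Kdr, Cdh5 and Cldn5. These medians moved with single libraries. In DKO against WT it was -0.16 without DKO replicate 2 and -0.21 without WT replicate 3. In Gm1142KO against WT it was -0.15 without Gm1142KO replicate 1 and 0.30 without Gm1142KO replicate 2. Between the knockout groups it was -0.28 without Gm1142KO replicate 1, -0.36 without Gm1142KO replicate 3 and -0.76 without Gm1142KO replicate 2. The summed level of the 10 genes was 183, 148 and 181 CPM in DKO, 266, 154 and 209 CPM in Gm1142KO, and 192, 178 and 219 CPM in WT. The ranges of the groups overlapped. In RNA of bulk tissue, differences in the number of endothelial cells and in RNA of these genes per cell cannot be told apart.

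To set the genes against the endothelium of the same library, counts were divided by the summed counts of Pecam1 and Cdh5, a choice made after the values were seen and given as a description. There were 369, 473 and 234 such counts in DKO, 485, 150 and 295 in Gm1142KO, and 363, 283 and 328 in WT. The ratios also carry the differences of Pecam1 and Cdh5 themselves. In DKO, log2 fold changes against WT and against Gm1142KO were -0.46 and -0.54 for Pecam1 and 0.08 and 0.13 for Cdh5. None of these passed. The smallest denominator, 150 counts in Gm1142KO replicate 2, belongs to the highest Egfl7 ratio below. Kdr then stood at 0.477, 0.452 and 0.521 in DKO, 0.196, 0.233 and 0.292 in Gm1142KO, and 0.342, 0.343 and 0.183 in WT. DKO lay above the other 6 libraries, as it did in CPM. Vwf stood at 0.0407, 0.0719 and 0.0684 in DKO, 0.124, 0.133 and 0.122 in Gm1142KO, and 0.118, 0.110 and 0.159 in WT, with DKO below the other 6 libraries. Egfl7 stood at 0.572, 0.674 and 0.970 in DKO, 0.771, 1.71 and 1.10 in Gm1142KO, and 0.733, 0.919 and 0.976 in WT. The groups overlapped for Egfl7 on this scale, unlike in CPM, where DKO and Gm1142KO did not overlap.

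**Figure D3:**
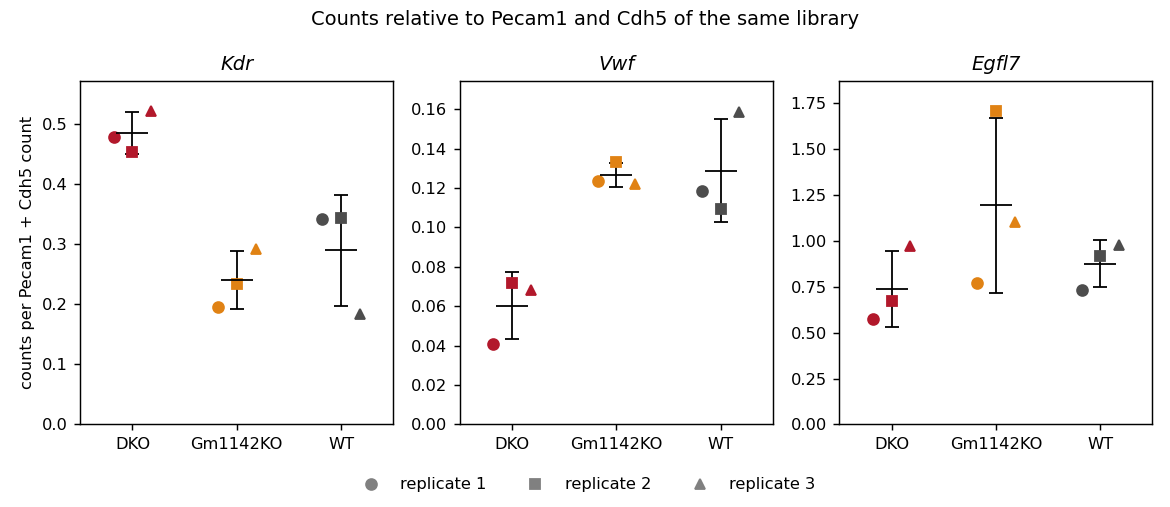
Counts of Kdr, Vwf and Egfl7 divided by the summed counts of Pecam1 and Cdh5 in the same library (vertical axes, linear, from 0), for DKO, Gm1142KO and WT, with replicates 1 to 3 as circle, square and triangle and bars for mean ± SD. DKO lies above the other 6 libraries for Kdr (0.452 to 0.521) and below them for Vwf (0.0407 to 0.0719), and the groups overlap for Egfl7.

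Gm1142KO replicate 2 was low in most of these genes together. It was the lowest library of its group in 9 of 10 genes, all but Esam, while over all tested genes it was the lowest in 33.7%. Relative to the mean of Gm1142KO replicates 1 and 3, its log2 CPM differed by a median of -0.88 over the 10 genes, against 0.06 over all tested genes. The difference was -1.56 for Cldn5, -1.36 for Tek, -1.29 for Cdh5 and -1.01 for Kdr, but -0.12 for Egfl7 and -0.14 for Esam. Of 12 genes of pericytes and smooth muscle, the contractile cells of vessel walls and cords, 9 were also lowest in this library, among them the pericyte gene Rgs5 with 44.3, 10.7 and 27.7 CPM in Gm1142KO replicates 1 to 3. Other lists held genes expressed by endothelium or acting on it. There this library was the lowest in 10 of 24 surface and junction genes and 7 of 13 transcription factor genes. It was the lowest in 5 of 13 VEGF and angiopoietin genes and 2 of 11 arterial and Notch genes. This library also had the highest mitochondrial share, and the part of that in these values was not tested.

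**Figure D4:**
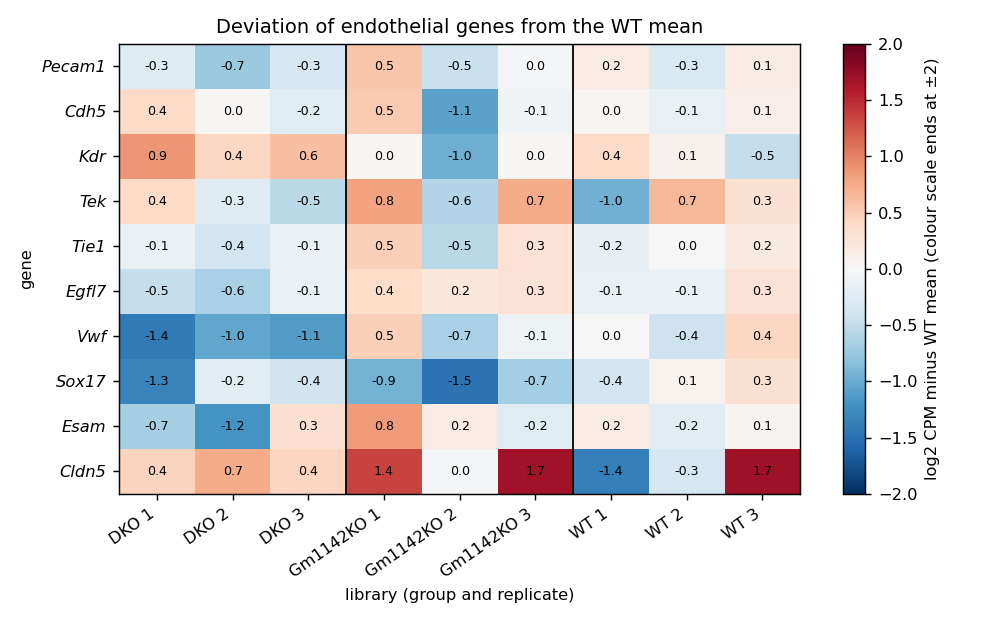
log2 CPM of the 10 genes (rows) in each library (columns, group and replicate) minus the WT mean of that gene, printed in each cell and coloured from blue (lower) to red (higher). The column of Gm1142KO 2 is low in most rows, the 3 DKO columns are low in Vwf and high in Kdr, and the WT columns differ from each other most in Cldn5.

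Across the 9 libraries, Tie1 followed the mean of the other 9 genes most closely, with a Pearson r of 0.97 in log2 CPM. Pecam1 had r = 0.74, Vwf 0.61, Tek 0.59, Cdh5 0.55 and Egfl7 0.51, while Cldn5 had 0.42, Esam 0.28, Sox17 0.14 and Kdr -0.20. These values are descriptions over 9 libraries that fall into 3 groups and share the low replicate described above. Outside the gene lists used here, and among 9587 named genes with a mean of at least 10 CPM, those most like the mean of the 10 genes included Aspn (r = 0.96), which encodes a matrix proteoglycan, Unc93b1 (0.87), Foxo4 (0.86) and Ifitm2 (0.84). Aspn had 34.8, 8.69 and 21.5 CPM in Gm1142KO replicates 1 to 3, so it too was lowest in replicate 2.

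Other genes expressed by endothelium or acting on it, not all of them particular to it, were read from 4 lists with 61 tested members. In Gm1142KO against WT 4 of 61 were lower and 0 higher, against 8.38% lower and 10.2% higher over all tested genes. Vegfa, which encodes the ligand of the Kdr receptor and is made by cells around vessels, had 31.9, 30.9 and 36.2 CPM in Gm1142KO and 44.6, 52.4 and 60.7 CPM in WT, without overlap (log2 fold change -0.67, SE 0.17, edgeR adjusted p = 0.00927). That call was lost without WT replicate 3 (edgeR adjusted p = 0.0624). Jam2, a junctional adhesion gene of endothelium that Sertoli cells also express, had 68.8, 60.3 and 77.8 CPM in Gm1142KO and 120, 114 and 120 CPM in WT (-0.77, SE 0.14, edgeR adjusted p = 7.51e-04). Thbd, which encodes the anticoagulant receptor thrombomodulin, was at -0.93 (SE 0.25, edgeR adjusted p = 0.012) and lost the call without WT replicate 2 (0.0537). Ocln, a tight junction gene also of Sertoli cells, was at -0.56 (SE 0.19, edgeR adjusted p = 0.0445) and lost it without the filter on low counts (0.0542), with limma-voom (0.0577), with a replicate block (0.0587) and without any 1 of 5 libraries (up to 0.131), among them Gm1142KO replicate 2 (0.102). DESeq2 called 4 of the 61 and limma-voom 3, against 3286 and 2994 of all 17251 tested genes. In the lists with no call, the smallest adjusted p was 0.214 for the transcription factor gene Sox18 (-0.73) and 0.115 for the Notch receptor gene Notch1 (-0.51). Of 12 Sertoli-cell genes in the same comparison, 3 were lower, among them Sox9 at -1.47 (edgeR adjusted p = 1.56e-04), and 1 was higher, and the part of Sertoli cells in the Jam2, Ocln and Vegfa values was not tested.

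In DKO against WT 0 of these 61 passed with edgeR, DESeq2 or limma-voom. At an unadjusted p under 0.05, 7 of the 61 passed edgeR's test, against 8.95% of all tested genes. The smallest edgeR adjusted p per list was 0.609 for Nrp1, a VEGF co-receptor (-0.40), 0.438 for Podxl, a sialomucin of endothelium (0.65), 0.461 for the flow-responsive factor Klf2 (-0.97) and 0.191 for the Notch ligand gene Jag2 (0.90). Between DKO and Gm1142KO 4 of 61 were higher and 1 lower, against 9.07% higher and 10.1% lower over all tested genes. The higher ones were Jam2 (0.77, SE 0.14, edgeR adjusted p = 8.06e-04), Thbd (1.03, SE 0.25, 0.00616), Podxl (0.79, SE 0.24, 0.0268) and Foxf1 (1.79, SE 0.62, 0.0475), a transcription factor of mesenchyme and some endothelium. Mcam, an adhesion gene of endothelium and of pericytes, was lower (-0.53, SE 0.13, edgeR adjusted p = 0.00935). Jam2 and Mcam stayed past the threshold in each of the fits that left out 1 library. Thbd lost it without DKO replicate 2 (edgeR adjusted p = 0.0598), Podxl without DKO replicate 1 (0.176), Gm1142KO replicate 2 (0.121) or Gm1142KO replicate 3 (0.0617), and Foxf1 with only those groups fitted (0.0669), with a replicate block (0.0547) and without any 1 of 8 libraries (up to 0.125, without Gm1142KO replicate 2). This comparison and the one of Gm1142KO with WT share the Gm1142KO libraries, so the values of Jam2 and Thbd in them are not independent. In the lists with no call here, the smallest edgeR adjusted p was 0.0833 for Vegfa (0.44) among VEGF and angiopoietin genes and 0.0833 for Notch1 (0.55) among arterial and Notch genes. The median log2 fold change of the 61 genes was -0.10 in DKO against WT, -0.14 in Gm1142KO against WT and -0.03 between the knockout groups.

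Of the lymphatic genes, 0 of 4 tested passed in any comparison with edgeR, DESeq2 or limma-voom. At an unadjusted edgeR p under 0.05 there was 1 in DKO against WT, where 8.95% of all tested genes passed. There was 1 in Gm1142KO against WT, where 30.8% did, and 0 between the knockout groups, where 32.2% did. Reln was at 0.69 in DKO against WT (edgeR adjusted p = 0.248, unadjusted p = 0.0016) and at 0.55 in Gm1142KO against WT (edgeR adjusted p = 0.053), Pdpn was at 0.48 between the knockout groups (edgeR adjusted p = 0.172), and the lymphatic master regulator gene Prox1 had too few counts to be tested. Pecam1, Vwf and Esam are also expressed by platelets and their precursors, so the list of platelet and red cell genes was read beside them. The platelet chemokine gene Ppbp had 0 counts in all 9 libraries, and Gp9 and Treml1 had at most 2 counts in any library. By TMM-scaled depth, 0 counts allow up to 0.338 CPM in the deepest library and 0.767 CPM in the shallowest (3 counts, counting error only). Of the 8 tested genes of this list 3 were lower in DKO than in Gm1142KO and 0 higher, against 10.1% lower and 9.07% higher over all tested genes. Itga2b, an integrin gene of the megakaryocyte lineage, had 10.3, 7.11 and 11.8 CPM in DKO, 17.3, 28.9 and 23.6 CPM in Gm1142KO, and 17.6, 13.4 and 11.8 CPM in WT, a log2 fold change of -1.27 between DKO and Gm1142KO (SE 0.26, edgeR adjusted p = 0.00193). The globin genes Hba-a1 (-0.83) and Hba-a2 (-1.10) were the others, Hba-a1 was higher in Gm1142KO than in WT (0.72, edgeR adjusted p = 0.0236), and reads of these near-identical copies cannot be assigned with certainty. The Hba-a1 call was lost without DKO replicate 2 between the knockout groups (edgeR adjusted p = 0.0653), and without Gm1142KO replicate 1 (0.089), WT replicate 1 (0.128) or WT replicate 2 (0.112) in Gm1142KO against WT. Summed over the list, levels were 74.0 to 103 CPM in DKO, 133 to 165 CPM in Gm1142KO and 91.1 to 99.7 CPM in WT. In Gm1142KO replicates 1 to 3, the platelet gene Pf4 had 7.57, 6.14 and 9.16 CPM and Gp1ba, another, had 4.08, 3.32 and 4.47 CPM. Both were lowest in replicate 2, as Vwf and Pecam1 were, while Itga2b was highest there and Esam was lowest in replicate 3. Mean levels in DKO and WT were 4.63 and 4.74 CPM for Pf4 and 1.76 and 1.75 CPM for Gp1ba. They were 9.74 and 14.3 CPM for Itga2b and 3.44 and 8.51 CPM for Vwf. The part of blood cells in the Vwf and Esam values was not tested.

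Of 12 pericyte and smooth muscle genes, 2 were lower in DKO than in Gm1142KO, Mcam and Notch3 (-0.78, edgeR adjusted p = 0.0285), against 10.1% of all tested genes, and Notch3 lost the call without any 1 of 4 libraries (up to 0.0866). Of the same 12, 1 was lower in Gm1142KO than in WT, Des (-0.72, edgeR adjusted p = 0.0436), against 8.38% of all tested genes. The Des call was lost without the filter (0.0751), with limma-voom (0.0598), with only those groups fitted, with a replicate block (0.066) and without any 1 of 5 libraries, among them Gm1142KO replicate 2 (0.156). The summed level of this list was 543 to 717 CPM in DKO, 536 to 773 CPM in Gm1142KO and 585 to 718 CPM in WT, so the ranges overlapped.

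Of 12 macrophage genes, 1 was lower in Gm1142KO than in WT, Cx3cr1 (-1.48, edgeR adjusted p = 0.0367), and 1 was higher in DKO than in Gm1142KO, C1qc (1.14, edgeR adjusted p = 0.0474), against 8.38% lower and 9.07% higher over all tested genes. Neither passed with limma-voom (adjusted p = 0.0838 and 0.0862) or without Gm1142KO replicate 2 (edgeR adjusted p = 0.0573 and 0.0996), and each was lost in other alternatives too. In DKO against WT 0 of the pericyte and 0 of the macrophage genes passed with edgeR, DESeq2 or limma-voom. Of these genes 0 had an unadjusted edgeR p under 0.05, against 8.95% of all tested genes. The summed level of the macrophage genes was 77.7 to 110 CPM in DKO, 68.5 to 78.3 CPM in Gm1142KO and 87.6 to 105 CPM in WT.

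The lists of the other cell types of the testis were read in the same way. Between DKO and Gm1142KO, 5 of 12 Sertoli genes were higher and 1 lower, 5 of 11 germ cell genes were higher and 2 of 6 Leydig genes were higher, against 9.07% higher and 10.1% lower over all tested genes. Without Gm1142KO replicate 2, 3 Sertoli genes were higher and 1 lower, 1 germ cell gene was higher and 2 Leydig genes were higher. Fewer genes passed over all genes in that fit too, and the shares above are those of the fit with all libraries. The fall in these counts is therefore not read as particular to these lists. The 2 Leydig genes were not the same ones. Hsd3b1 lost its call (edgeR adjusted p = 0.0577), Cyp17a1 kept it and another Leydig gene passed. With all libraries, Cyp17a1 did not pass between DKO and Gm1142KO with DESeq2 (adjusted p = 0.0634) or limma-voom (0.054). In DKO against WT 2 of 11 germ cell genes were higher, Dazl and Uchl1, against 0.0464% of all tested genes. Dazl lost that call without DKO replicate 2 (edgeR adjusted p = 0.0608), WT replicate 1 (0.167) or WT replicate 3 (0.114), and Uchl1 without any 1 of 5 libraries (up to 0.23). In that comparison 0 Sertoli and 0 Leydig genes passed with edgeR, DESeq2 or limma-voom. An unadjusted edgeR p under 0.05 was met there by 8 of 11 germ cell, 2 of 12 Sertoli and 0 of 6 Leydig genes, against 8.95% of all tested genes. Compared with WT, Gm1142KO had 1 germ cell gene higher and 1 lower and 2 of 6 Leydig genes lower, against 10.2% higher and 8.38% lower over all tested genes. The summed level of the germ cell genes was 699 to 851 CPM in DKO, 372 to 480.0 CPM in Gm1142KO and 457 to 524 CPM in WT. CPM are shares of a library, and the part of these cells in the values of the endothelial genes was not tested.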

How the data were processed

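Messenger RNA of 9 mouse testes libraries was measured by sequencing. The deposited table holds raw gene counts, which the authors made with cutadapt, Bowtie2, STAR and featureCounts on build mm39, per the submitters' processing notes. Versions, annotation release, strand setting and treatment of multimapping reads are not given in the sources used here. Symbols came from GENCODE and RefSeq tables of GRCm38 for 52073 of 56691 identifiers, as did exonic lengths and overlaps. Bases shared with other genes and promoter windows are therefore those of GRCm38, not of the build counted on.

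Counts were tested with edgeR 4.0.16 (R 4.3.3): genes kept by filterByExpr by group (minimum count 10, total 15), TMM library sizes, 1 term per group over all 9 libraries (6 residual degrees of freedom), quasi-likelihood F-test, and Benjamini-Hochberg adjustment over 17251 genes at 0.05. SE is the log2 fold change over the root of F, and intervals are 95%. Alternatives used RLE size factors, no filter or a strict one, DESeq2 1.42.0, limma 3.58.1 (voom), only the groups compared, a replicate block, no mitochondrially encoded genes, and each library left out. The test was checked on simulated counts. Log2 CPM used a prior count of 2.

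Library totals of 4370124 to 8359594 counts set the precision. A floor of 3 counts is 0.338 to 0.767 CPM, taken over TMM-scaled depths of 8864541 to 3911174. Intervals on 0 counts cover counting error only. No libraries held identical columns.

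The 10 genes and the lists were chosen with earlier results of these data known. Besides all 10 genes, up to 4 passing genes with the smallest p were named per list and comparison, or, where none passed, the one with the smallest p, as well as the 5 genes most correlated with the mean of the 10, not all of which are reported here. Not all named genes of the Sertoli, germ and Leydig lists are printed. The ratio to Pecam1 and Cdh5 was chosen after the values were seen.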

Additional observations from a re-analysis of the deposited data

How the results depend on the processing

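Over 17 alternatives in each comparison, 484 of 510 log2 fold changes of the 10 genes kept direction and call, 5 lost a call (Kdr and Vwf between the knockout groups), 5 gained 1 and 16 changed sign, all of them in genes that did not pass. Calls over all genes in DKO against WT were 110 without the filter, 63 with DESeq2 and 28 with only those groups fitted, against 16, and the share of them higher was 36.4% without mitochondrially encoded genes and 60.3% with DESeq2, against 50%; the cause was not tested. With 1 library left out, calls over all genes ran from 9 (without WT replicate 1) to 45 (without Gm1142KO replicate 2) in DKO against WT, 2037 to 3380 in Gm1142KO against WT and 2128 to 3219 between the knockout groups. Of the 10 genes, 0 to 0 were called in DKO against WT (median -0.44 to -0.16), 0 to 1 in Gm1142KO against WT (-0.15 to 0.30) and 1 to 4 between the knockout groups (-0.76 to -0.28). Sign changes were met in DKO against WT by Cldn5 (-0.49 to 1.67, and -0.0077 with DESeq2), Cdh5 (-0.11 to 0.19) and Tek (-0.60 to 0.14). In Gm1142KO against WT they were met by Pecam1 (-0.23 to 0.28), Cdh5 (-0.48 to 0.25), Tek (-0.037 to 0.70), Tie1 (-0.068 to 0.38), Vwf (-0.40 to 0.19) and Esam (-0.045 to 0.54), and between the knockout groups by Cdh5 (-0.19 to 0.56). Replicate numbers are not known to pair libraries. Deviations from the group mean correlated at -0.27 to 0.10 between same-numbered libraries and at -0.19 to 0.16 between differently numbered ones. With a replicate block, 16 genes were called in DKO against WT, 2921 in Gm1142KO against WT and 2965 between the knockout groups, of which 0, 0 and 3 were among the 10. Where a group keeps 2 libraries the shared spread of the fit is assumed for them. Depth limits Cldn5, Sox17 and Vwf, which had as few as 2, 8 and 15 counts in a library.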
